A study of Mus musculus with 9 samples.

Results

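The natriuretic peptide system was followed in open chromatin of mouse heart muscle cells at 3 ages after birth. It comprised the peptide genes Nppa, Nppb and Nppc and the receptor genes Npr1, Npr2 and Npr3, taken by name from a deposited table of counts at transcription start sites (TSS). All 6 genes had a row among 33844 TSS regions. To these were added the peaks that lie on chromosome 4 between 147950000 and 148050000 of GRCm38, the 100 kb around Nppb and Nppa, which are 6 of 25915 deposited peaks. The assay was ATAC-seq, which reads the DNA that a transposase can reach and tag. The animals were CD1 (ICR) mice at postnatal day 1 (P1), day 14 (P14) and day 56 (P56), with 3 libraries per stage and no genetic change or agent named for any stage. The protocols in the labels describe pools of 12 P1 hearts for each sample, or 6 to 7 hearts at the later ages, from which nuclei were separated on Pcm1, a protein used to mark cardiomyocyte nuclei. The growth protocol speaks of neonatal ventricles and of atria removed from adult hearts, and also of surgery, without saying whether the hearts used here had any.

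Atrial natriuretic peptide (ANP, from Nppa) and B-type natriuretic peptide (BNP, from Nppb) are hormones that heart muscle releases when stretched, and C-type natriuretic peptide (CNP, from Nppc) acts mainly near its source in vessels, bone and brain. Npr1 and Npr2 are receptors that carry their own guanylyl cyclase and make the messenger cGMP, Npr1 for ANP and BNP and Npr2 for CNP, while Npr3 binds all of these peptides and removes them. In the mouse, Nppa and Nppb lie next to each other in the same orientation, are active in the embryonic ventricle, and are known in the adult ventricle as genes that become active again under load.

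The promoters of the neighbouring genes Nppa and Nppb are shown because these are the hormone genes of heart muscle, and the results set their starts side by side. The letters are the 250 bases before the RefSeq start of each gene in GRCm38.p6, a C57BL/6J assembly and not the CD1 strain, both on the plus strand, at chr4:148000472-148000721 for Nppa and chr4:147985650-147985899 for Nppb. Capitals mark matches, on either strand, to TATAAA (the TATA box), GATAA (GATA factors), AAGTG (Nkx2-5), GTGTGA (T-box factors) and CATTCC (the M-CAT element of TEAD factors).
Nppa: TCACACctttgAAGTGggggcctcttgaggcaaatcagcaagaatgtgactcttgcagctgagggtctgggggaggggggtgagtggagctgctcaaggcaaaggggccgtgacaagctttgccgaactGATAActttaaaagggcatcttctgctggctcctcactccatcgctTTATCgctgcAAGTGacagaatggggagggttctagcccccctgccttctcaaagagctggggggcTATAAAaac
Nppb: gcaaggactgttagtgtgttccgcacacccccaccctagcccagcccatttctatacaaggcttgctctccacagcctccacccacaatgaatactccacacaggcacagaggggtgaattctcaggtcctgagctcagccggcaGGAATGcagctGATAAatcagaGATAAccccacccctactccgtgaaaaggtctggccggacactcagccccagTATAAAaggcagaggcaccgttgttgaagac

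All positions depend on the RefSeq start, and starts were not mapped here, so positions in the different genes may not align. Counting the base before the start as -1, the Nppa window held the T-box match at -250, Nkx2-5 matches at -239 and -65, GATA matches at -121 and -75 and a TATAAA match at -9. The Nppb window held an M-CAT match at -105, GATA matches at -94 and -83 and a TATA box at -31. Of 32851 promoter windows of this length in the RefSeq table, 22.6% held GATAA, 40.7% AAGTG, 12.3% GTGTGA, 12.6% CATTCC and 12.4% TATAAA. The E-box CANNTG, found in 66.2% of windows, matched at -195 and -66 in Nppa, the latter over the Nkx2-5 match, and at -99 in Nppb. The other motifs searched were the GC box GGGCGG (32.7% of windows), the AP-1 site TGANTCA (6.75%), TGACG (17.8%), and, by name, the CArG box (1.47%) and the MEF2 site (2.92%). None of these had an exact match in either window, and sites with a mismatch were not searched. Among the other members, Nppc had a TATA box at -29 and a GC box at -62, and Npr1 had GC boxes at -60 and -54. Npr2 had an E-box at -159, and Npr3 had TGACG at -50 and an E-box at -39. GC content was 54.4% for Nppa and 54.8% for Nppb, against 69.2% for Nppc, 70.4% for Npr1, 64.4% for Npr2 and 38.8% for Npr3, with a median of 52.4% over all windows.

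Levels are given as CPM, counts put on 1 common total per library and scaled with TMM, a factor that allows for differences in composition between libraries, and changes as log2 values from edgeR's quasi-likelihood fit over the whole table. A change was called when its p-value, adjusted over all regions of the table, was below 0.05. Library totals were 481217 to 2167369 counts in the TSS table and 316311 to 1217798 in the peak table, and P14 was the shallowest stage. Members had 8 to 178 counts per library at the TSS and 5 to 215 in the peaks. The 10% of TSS regions most covered in a library took 32.6% to 33.4% of its counts in P1 libraries, 34.6% to 36.0% in P14 libraries and 35.9% to 38.6% in P56 libraries. This reading of how far signal stands out was highest in P56 replicate 2. Nothing in the labels says whether replicates of a stage shared a dissection or preparation, so the p-values measure only the spread between these samples.

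None of the 6 TSS regions was called in any of the comparisons of stages. From P1 to P56 all 6 had a log2 change above 0, with a median of 0.31 against -0.01 over all 33747 regions tested, and adjusted p-values ran from 0.0588 to 0.59. By mean count the members stood above 59.8% to 95.4% of all regions, so this median was not matched for coverage. Over 19 alternatives the changes in this comparison kept their sign, with lowest values of 0.019 for Npr1, 0.066 for Nppa, 0.12 for Npr2 and 0.39 for Nppb. Of all regions 2.53% were called in that comparison by edgeR, 1.72% higher and 0.806% lower at P56. At an unadjusted p below 0.05 there was 1 member, Nppb, and that holds for 21.6% of all regions. DESeq2 called 0 members, but gave an adjusted p only for Nppb, Npr1 and Npr2, and limma-voom called 1, Nppb. Of all 33747 regions DESeq2 called 292 and limma-voom 947. Between P1 and P14, where edgeR called 0.0119% of all regions, 5 of 6 changes were above 0 (median 0.35) and 1 member, Npr1, had an unadjusted p below 0.05, as had 8.59% of all regions. Between P14 and P56, where 0.00296% were called, 3 changes were above 0 and 3 below, and no member had an unadjusted p below 0.05 (10.1% of all regions had). DESeq2 and limma-voom called 0 members in these comparisons.

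Nppb (ENSMUSG00000029019, chromosome 4, 147985786 to 147987205) was the member whose newborn and adult TSS values lay farthest apart. Its CPM were 26.0, 38.3 and 46.2 in the P1 libraries, 46.6, 44.3 and 47.1 at P14 and 48.4, 75.2 and 66.4 at P56. Every P56 library was above every P1 and P14 library, the margin being narrow for P56 replicate 1, and P1 and P14 overlapped. Libraries of P1 and P56 also failed to overlap in 24.1% of all regions, and those of P14 and P56 in 14%. The P1 mean was 36.8 ± 10.1 CPM (SD, n = 3), the P14 mean 46.0 ± 1.51 and the P56 mean 63.3 ± 13.6, a fitted 1.73-fold difference between P1 and P56. The log2 change was 0.79 ± 0.234 (SE), with a 95% interval of 0.32 to 1.27 before adjustment, an unadjusted p of 0.00184 and an edgeR adjusted p of 0.0588, so it did not pass. The call turned on single libraries: the log2 change was 1.00 without P1 replicate 3 (edgeR adjusted p = 0.036) and 0.95 without P56 replicate 1 (0.025), both past the threshold. It was 0.56 without P1 replicate 1 (0.223), 0.64 without P56 replicate 2 (0.197) and 0.39 without both of these (0.356), and limma-voom gave 0.83 (adjusted p = 0.0428). All regions called were 655 of 33556 without P1 replicate 3, 1523 of 33842 without P56 replicate 1 and 947 of 33747 with limma-voom. The change was 0.33 ± 0.260 from P1 to P14 (edgeR adjusted p = 0.744) and 0.46 ± 0.258 from P14 to P56 (0.557). The deposited peak over the Nppb start, described below, counts largely the same reads. There the change from P1 to P56 was 0.47 ± 0.258 (edgeR adjusted p = 0.356), and libraries of these stages overlapped.

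Nppa (ENSMUSG00000041616, chromosome 4, 148000722 to 148002074) starts 14.8 kb downstream of the Nppb start and had no such separation. Its CPM were 20.4, 23.3 and 25.2 at P1, 22.2, 25.3 and 16.4 at P14 and 21.1, 29.3 and 31.4 at P56. The stages overlapped in each comparison, and the P14 values rested on 8 to 20 counts per library. The log2 change from P1 to P56 was 0.25 ± 0.250 (SE, edgeR adjusted p = 0.586), with a 95% interval of -0.26 to 0.75. From P1 to P14 it was -0.095 ± 0.294 (0.952) and from P14 to P56 0.34 ± 0.302 (0.738).

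Nppc (ENSMUSG00000026241, chromosome 1, 86666293 to 86670573) lies on another chromosome and encodes the peptide of vessels and bone. Its CPM were 28.2, 26.0 and 30.4 at P1, 41.1, 40.1 and 20.5 at P14 and 44.0, 31.6 and 38.4 at P56. The adult libraries were all above the newborn ones, and P1 and P56 also failed to overlap in 24.1% of all regions. P14 replicate 3 was the lowest of the 9, while the other P14 libraries were near the top. The log2 change from P1 to P56 was 0.42 ± 0.254 (edgeR adjusted p = 0.337), with an interval of -0.10 to 0.94.

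**Figure D1:**
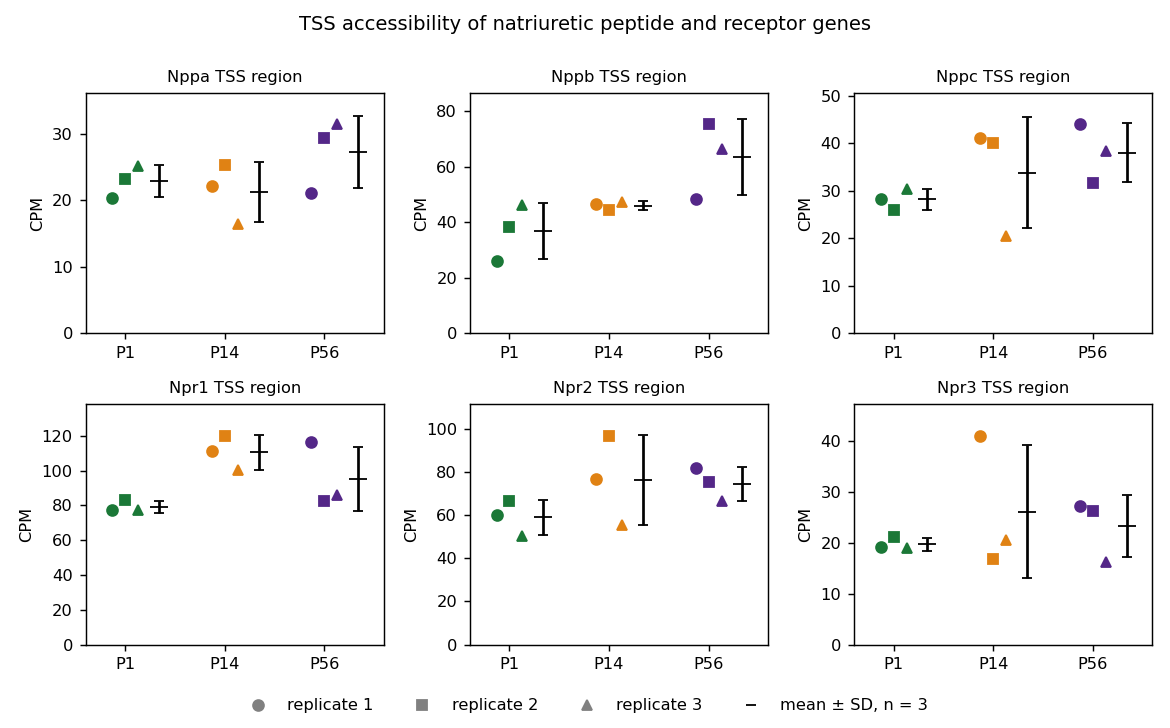
TSS levels (CPM) of the 6 natriuretic peptide and receptor genes in each of the 9 libraries, by stage, with a symbol per replicate and the mean ± SD (n = 3) beside them; axes start at 0 and differ between panels. Nppb libraries at P56 (48.4 to 75.2 CPM) all lie above those at P1 (26.0 to 46.2 CPM), whereas Nppa libraries of the stages overlap.

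Of the receptors, Npr1 (ENSMUSG00000027931, chromosome 3, 90450591 to 90465928), the cyclase that answers ANP and BNP, had its highest mean at P14. Its CPM were 77.3, 82.8 and 77.1 at P1, 111, 120.2 and 100.3 at P14 and 116, 82.7 and 86.2 at P56. The P14 libraries were all above the P1 libraries, a separation also found in 16.9% of all regions, and P56 overlapped with both other stages because replicate 1 was high and the other replicates were near the newborn level. The log2 change from P1 to P14 was 0.48 ± 0.178 (SE), with an interval of 0.12 to 0.85 before adjustment, but did not pass (unadjusted p = 0.0107, edgeR adjusted p = 0.516). From P1 to P56 it was 0.27 ± 0.171 (0.363) and from P14 to P56 -0.22 ± 0.182 (0.723).

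Npr2 (ENSMUSG00000028469, chromosome 4, 43629015 to 43651437), the cyclase that answers CNP, had CPM of 60.3, 66.4 and 50.3 at P1, 76.6, 97.0 and 55.3 at P14 and 81.9, 75.2 and 66.4 at P56. No stage stood clear of another, and P14 spanned the range from the newborn to above the adult values. In P56 replicates 2 and 3 the equal CPM of Npr2 and Nppb come from equal counts, 100 and 57, in separate rows. The log2 change from P1 to P56 was 0.34 ± 0.196 (edgeR adjusted p = 0.307), with an interval of -0.06 to 0.74. Npr3 (ENSMUSG00000022206, chromosome 15, 11839896 to 11907837), the clearance receptor, had CPM of 19.1, 21.2 and 18.9 at P1, 41.1, 16.9 and 20.5 at P14 and 27.3, 26.3 and 16.3 at P56. P14 replicate 1 held the highest value, far above the rest, and without it the log2 change from P1 to P14 turned from 0.53 ± 0.304 (adjusted p = 0.634) to -0.070 (0.982). The Npr3 values at P14 and P56 rested on 8 to 37 counts per library.

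Ratios within a library depend little on how libraries are scaled. By mean count, Nppa and Npr3 stood above 62.3% and 59.8% of all TSS regions, and Nppb and Npr1 above 84.0% and 95.4%. No deposited peak covers the starts of Nppa, Npr1 or Npr3. The part of background reads in these counts, and so in the ratios, was not tested. The ratio of Nppb to Nppa at the TSS, taken from log2 CPM with a prior count of 2, was 1.26, 1.60 and 1.78 in the P1 libraries, 2.02, 1.70 and 2.70 at P14 and 2.20, 2.48 and 2.06 at P56. Every adult library was above every newborn library, with P14 spread across both. On the log2 scale the means were 0.61 ± 0.259 (SD, n = 3), 1.07 ± 0.336 and 1.16 ± 0.137, and an exact permutation of the libraries over the stages found no difference past the threshold (p = 0.104, adjusted over 3 such tests 0.155, where the smallest possible is 0.00357). Without P14 replicate 2, or without P14 replicate 3, the exact permutation p was 0.0393 before adjustment. In 9 of 11 alternatives it stayed above the threshold, with a highest exact permutation p of 0.438. The ratio of Npr3 to Npr1, the clearance to the signalling receptor, was 0.261 to 0.271 in newborn libraries, 0.152 to 0.379 for P14 and 0.204 to 0.332 at P56. The P1 libraries were close together inside the range of both later stages (exact permutation p = 0.846, adjusted 0.846).

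**Figure D2:**
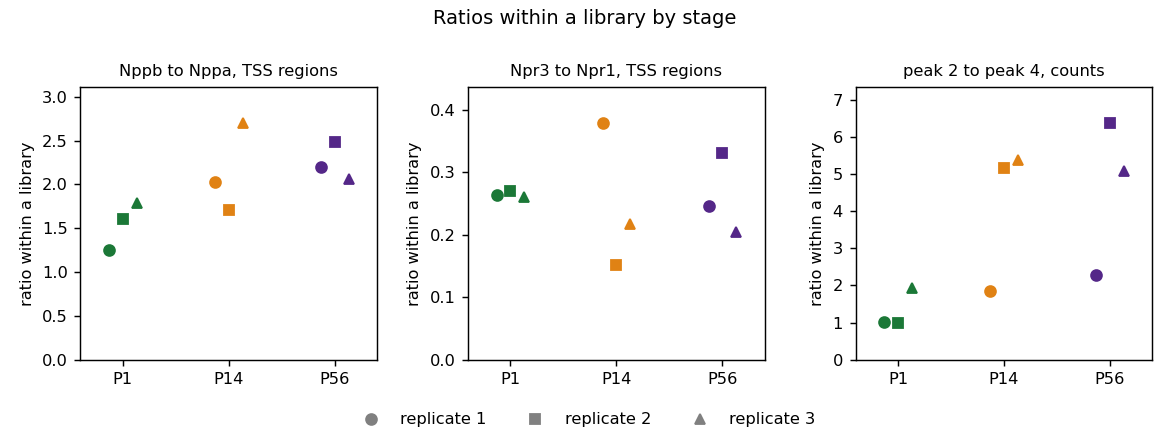
Ratios within each of the 9 libraries by stage, with a symbol per replicate: Nppb to Nppa and Npr3 to Npr1 at the TSS, and the counts of peak 2 to peak 4 of the chromosome 4 locus; vertical axes start at 0. The adult Nppb to Nppa ratios (2.06 to 2.48) lie above the newborn ones (1.26 to 1.78), and the P1 ratios of Npr3 to Npr1 (0.261 to 0.271) lie within the spread of the later stages.

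The 6 peaks of the locus are numbered here from the side upstream of Nppb. Peaks 1 to 4 overlap none of the genes checked, which were the members, Clcn6, Plod1, 2510039O18Rik and Agtrap. Overlap with other RefSeq genes was not checked. The nearest edges of peaks 1 to 4 lie 30.4, 21.2, 15.9 and 5.74 kb before the Nppb start. Peak 5 (147984745 to 147987144) covers the Nppb start, and peak 6 (148038100 to 148042033) covers an end of Clcn6. No deposited peak covers the Nppa start, the nearest being peak 5 at 13.6 kb. Of the other members, the starts of Nppc and Npr2 lie in a deposited peak, and those of Npr1 and Npr3 are 9686 and 1715 bp from the nearest one.

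**Figure D3:**
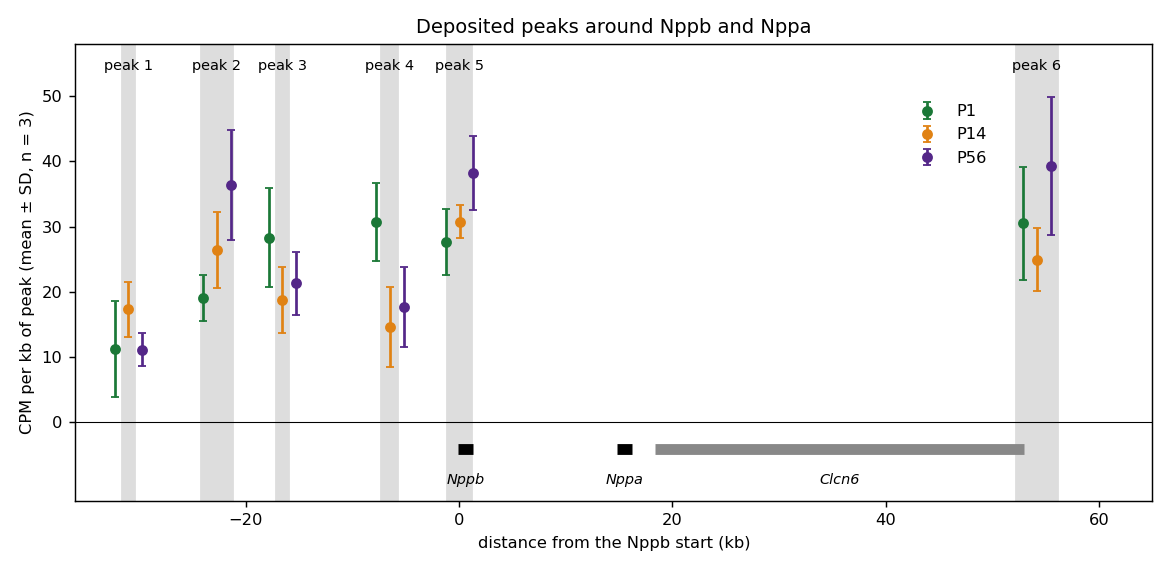
Map of the 6 deposited peaks (grey bands, to scale) by distance from the Nppb start in kb, with their level in CPM per kb of peak as mean ± SD over 3 libraries at P1, P14 and P56 (offset sideways for legibility), and Nppb, Nppa and Clcn6 as bars below 0. Peak 2 goes from 19.1 CPM per kb at P1 to 36.4 at P56, peak 4 from 30.7 to 17.6, and no peak lies over Nppa.

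No locus peak was called in any comparison. From P1 to P56, where edgeR called 0.444% of 25885 peaks (0.212% higher, 0.232% lower at P56), 3 of the 6 changes were above 0 and 3 below, with adjusted p-values of 0.0685 to 0.954. At an unadjusted p below 0.05 there were 2 of the 6, peaks 2 and 4, against 16% of all peaks. For P1 to P14 and for P14 to P56, each with 0.00773% of all peaks called, there was 1 each, peak 4 and peak 6, against 6.04% and 14.7%. DESeq2 and limma-voom called 0 of the 6 in each comparison, though DESeq2 gave an adjusted p for peak 6 alone between P1 and P56.

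Peak 2 (147961662 to 147964732, 3071 bp), upstream of Nppb, had the largest difference between newborn and adult libraries of the 6. Its CPM were 52.6, 52.1 and 71.2 at P1, 61.4, 96.5 and 85.2 at P14 and 86.7, 138 and 110.2 at P56. The adult libraries were above the newborn ones, as in 18.6% of all peaks, and P14 overlapped with both. The log2 change was 0.93 ± 0.261 (SE, interval 0.41 to 1.45 before adjustment, edgeR adjusted p = 0.0685), a fitted 1.91-fold difference. It was past the threshold at 1.10 without P1 replicate 3 (0.0461) and at 1.09 without P56 replicate 1 (0.0215), and was 0.74 without P56 replicate 2 (0.389) and 0.64 without both P1 replicate 1 and P56 replicate 2 (0.0929). With the scaling factors of the TSS table it was 1.00 (0.0452). All peaks called were 144 of 25854 without P1 replicate 3, 649 of 25908 without P56 replicate 1 and 150 of 25885 with those factors.

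Peak 4 (147978621 to 147980159, 1539 bp), between peak 2 and the Nppb start, had its highest values in the newborn. Its CPM were 51.8, 53.2 and 36.8 at P1, 33.3, 18.7 and 15.8 at P14 and 38.1, 21.7 and 21.7 at P56. P1 was clear of P14, as in 13% of all peaks, and overlapped with P56 through P56 replicate 1. The log2 change was -0.96 ± 0.364 from P1 to P14 (interval -1.69 to -0.24 before adjustment, edgeR adjusted p = 0.742) and -0.80 ± 0.318 from P1 to P56 (interval -1.43 to -0.16, adjusted p = 0.2), neither of which passed. At P14 it rested on 5 to 19 counts per library.

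The counts of peak 2 relative to those of peak 4, chosen after their values were seen and therefore given without a test, were 1.02, 0.979 and 1.93 at P1, 1.84, 5.17 and 5.40 at P14 and 2.28, 6.39 and 5.08 at P56. P14 replicate 1 lay within the newborn range, P56 replicate 1 somewhat above it and the other later libraries well above it. As a share of all counts in the 6 peaks, peak 2 held 17.1% ± 1.77 (SD, 3 libraries) at P1, then 25.1% ± 4.95 at P14 and 26.0% ± 1.97 at P56. Peak 4 held 14.2% ± 4.33, 7.19% ± 3.52 and 6.67% ± 3.30.

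Peak 5, over the Nppb promoter, counts largely the same reads as the Nppb TSS region, whose count was 91.3% to 100% of that of the peak. Its CPM were 53.4, 67.7 and 77.7 at P1, 80.6, 68.5 and 72.6 at P14 and 76.2, 101 and 98.5 at P56. The highest newborn library was above the lowest adult one, unlike in the TSS table. The log2 change from P1 to P56 was 0.47 ± 0.258 (interval -0.04 to 0.98, edgeR adjusted p = 0.356), smaller than the 0.79 of the TSS region and scaled by other library totals.

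Peak 6, at Clcn6, a chloride and proton exchanger of late endosomes, had CPM of 83.0, 126 and 151 at P1, 87.6, 87.1 and 119.9 at P14 and 133, 203 and 129 at P56. Its adult libraries were clear of P14, as in 19.1% of all peaks, and overlapped with P1. The log2 change from P14 to P56 was 0.68 ± 0.268 (edgeR adjusted p = 0.261) and that from P1 to P56 0.38 ± 0.246 (0.443). Peak 3 (147968688 to 147969979) had 19.3 to 44.2 CPM over the 9 libraries and a log2 change of -0.41 ± 0.325 from P1 to P56 (adjusted p = 0.535). Peak 1 (147954268 to 147955533), with 6 to 30 counts per library, had -0.06 ± 0.415 (0.954), and its interval of -0.89 to 0.76 shows how little can be said at this depth.

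The summed level of the 6 peaks was 291, 346 and 392 CPM in the P1 libraries, 298, 317 and 350.2 at P14 and 365, 507 and 409 at P56. P1 and P56 overlapped, with P56 replicate 2 the highest. An exact permutation test on the log2 sums did not pass the threshold (p = 0.1, adjusted 0.155).

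The peaks over the starts of Nppc (86669146 to 86671163 on chromosome 1) and Npr2 (43630032 to 43633878 on chromosome 4) gave changes from P1 to P56 of 0.18 ± 0.284 (SE, edgeR adjusted p = 0.77) and 0.25 ± 0.249 (0.629). Both were smaller than the 0.42 and 0.34 of the TSS regions, which count some of the same reads.

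**Figure D4:**
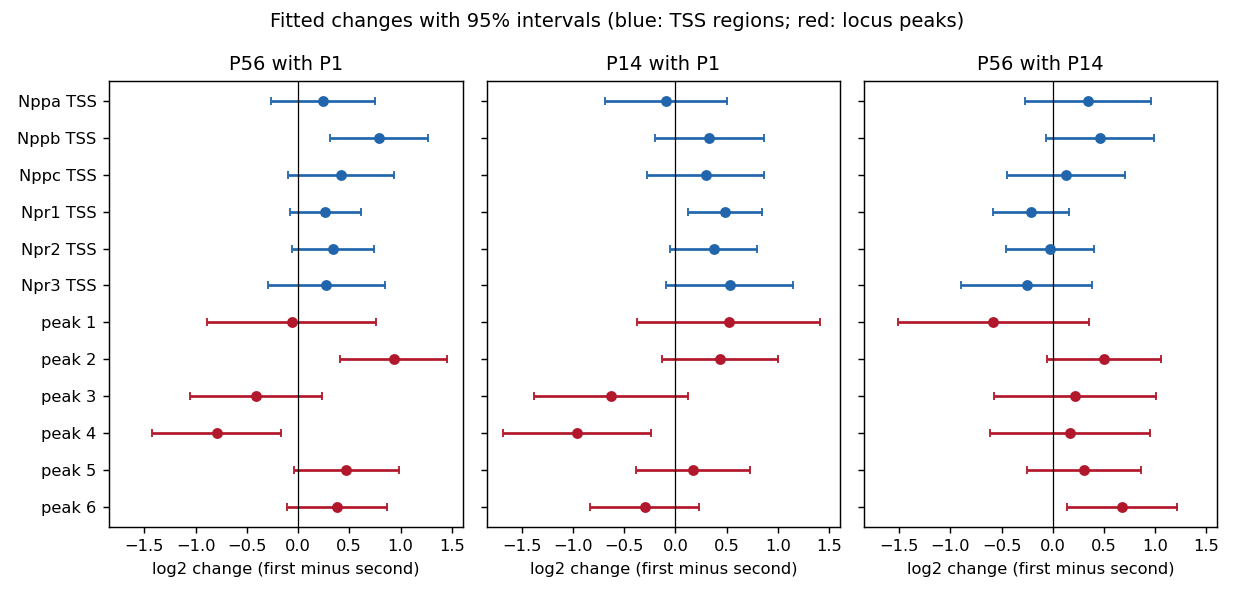
Fitted log2 changes of the 6 TSS regions (blue) and the 6 locus peaks (red) for each pair of stages, the later minus the earlier, with 95% intervals that are not adjusted for multiple testing. All TSS changes from P1 to P56 lie above 0 (0.25 to 0.79), while the peaks run from -0.80 for peak 4 to 0.93 for peak 2; none of them passed the adjusted threshold.

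Genes that process and remove the peptides were not called in any comparison (0 of 7 tested). Corin, the protease that cuts pro-ANP, had 54.1 ± 11.1 CPM (SD, n = 3) at P1 and 73.6 ± 14.3 at P56, a log2 change of 0.46 (edgeR adjusted p = 0.191). Furin, a convertase that cuts pro-BNP and pro-CNP, had 0.49 (0.104). Mme, or neprilysin, which degrades the peptides, had -0.47 (0.239), from 51.3 ± 6.07 to 36.8 ± 6.69 CPM. The median of these genes was -0.03, near that of all regions.

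Nor was any of 18 genes of cGMP signalling called in any comparison (8 of 18 changes above 0 from P1 to P56, median -0.05). Prkg1, the cGMP-dependent kinase, was at 87.5 ± 11.4 CPM at P1 and 87.6 ± 11.3 at P56 (log2 change -0.00, adjusted p = 0.997). The phosphodiesterases Pde5a and Pde9a, which break down cGMP, had changes of -0.19 (0.678) and 0.27 (0.325).

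Also tested were 19 transcription factors and cofactors known to act on Nppa or Nppb, with Myocd, Hdac4 and Hdac9 as cofactors. Of these, 1 rose from P1 to P56 and none fell, where 1.72% of all regions rose. This was Mef2d, a factor of the MEF2 family (88.1 ± 12.4 to 141 ± 43.3 CPM, log2 change 0.69 ± 0.184 SE, edgeR adjusted p = 0.0376). Its call was lost with DESeq2 (0.72, adjusted p = 0.0761), with loess offsets (0.42, 0.25), with library size alone (0.55, 0.0581), with the factors of the peak table (0.63, 0.0604), with only regions of a mean count of at least 20 (0.55, 0.105) and without P56 replicate 2 (0.41, 0.235), P1 replicate 1 (0.57, 0.132), P1 replicate 2 (0.71, 0.0941) or any single P14 library (0.69 to 0.70, 0.0556 to 0.0608). Of the 19 changes 15 were above 0, with a median of 0.40, which was 0.040 without P56 replicate 2 and -0.17 without both it and P1 replicate 1. Gata4 (0.46, adjusted p = 0.198), Nkx2-5 (0.49, 0.312) and Tbx5 (0.47, 0.212), cardiac factors that activate Nppa, and Rest (0.26, 0.573), a repressor of it, did not pass. None of the 19 was called in the other comparisons by the same fit. With P1 replicate 1 and P56 replicate 2 both left out, 1 of them was called lower from P1 to P56 and 2 from P1 to P14, and Mef2d was not called (0.27, edgeR adjusted p = 0.399).

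The 5 neighbours of the locus analysed at the TSS (Plod1, 2510039O18Rik, Agtrap, Mfn2 and Miip) were all above 0 from P1 to P56 and none was called. Their changes ran from 0.46 for Plod1 (edgeR adjusted p = 0.14) to 0.64 for Mfn2 (0.0832), a mitochondrial fusion protein. Their median of 0.50 was 0.24 without P56 replicate 2 and 0.11 without both it and P1 replicate 1. The change at Nppb (0.79) was above this range and that at Nppa (0.25) below it, though the standard errors of 0.18 to 0.27 are as large as most of these gaps. Clcn6 was not analysed at the TSS here.

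For a search of like regions, those with predicted-gene, clone or Rik names were passed over. This left 14505 to compare, of 19587 with a mean count of at least 20. Among these, the TSS regions whose log2 CPM ran most like Nppb over the 9 libraries were at Fos (Pearson r = 0.98), Mafk (0.98) and Mlst8 (0.98). For Nppa they were Zfp282 (0.97), Dr1 (0.96) and Entpd7 (0.96). These regions share libraries, depth and the share of signal in open regions, and the values describe only the order of these libraries.

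Markers of other cells were counted at their TSS, where a count is not a measure of expression and can include background reads. No marker list was at 0 in any library, which does not by itself show that these regions were open. Leukocyte markers, for example, had 28.8 CPM per region at P1, 30.8 at P14 and 29.4 at P56. The sum over 10 cardiomyocyte markers was 500.0 to 1049 CPM in P1 libraries, 807 to 1012 at P14 and 997 to 2552 at P56. Of these markers 6 of 10 were called higher from P1 to P56 by edgeR (median log2 change 0.87), as were 1.72% of all regions. That count was 1 without P56 replicate 2 (median 0.44), 1 with loess offsets (0.64) and 1 without both P1 replicate 1 and P56 replicate 2 (0.11), 2 without P1 replicate 1 (0.66), 2 without P1 replicate 2 (0.94) and 3 to 4 without any single P14 library. That sum moved in the same direction as Nppb, and its part in the Nppb values was not tested. The 10 atrial markers summed to 331 to 357 CPM in P1 libraries, 334 to 419 CPM for P14 and 294 to 365 CPM for P56, with none called. For endothelial and endocardial markers the sums were 484 to 590, 573 to 660 and 569 to 624 CPM, for fibroblast markers 341 to 393, 329 to 391 and 341 to 364, and for leukocyte markers 249 to 327, 291 to 323 and 263 to 319, with none called. For smooth muscle and pericyte markers they were 309 to 322, 350 to 407 and 395 to 472 CPM, with no overlap between P1 and P56. Of single regions 24.1% did not overlap in that comparison, and no such share was computed for sums of 10 regions. In this list 1 of 10 was called (Smtn, higher from P1 to P56, named after its value was seen). In bulk nuclei, a change in the mix of cells and a change of accessibility per nucleus cannot be told apart.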

How the data were processed

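The authors deposited 2 tables of raw read counts, per gene at a region around its TSS (width not given in the sources used here) and per peak, for peaks common to all libraries. MACS 1.4.0 and featureCounts 1.4.2, BWA 0.7.10 and SAMtools 1.3.1, bedtools 2.26 and bcl2fastq 2.17.1.14 are named in the submitters' processing notes, as is GRCm38, without their roles. Read filters and the pooling of samples for peak calling are not given in the sources used here.

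Every deposited region had a mean of at least 10 counts. Each count table was fitted whole with edgeR 4.0.16 (R 4.3.3): TMM, the default expression filter by stage (33747 TSS regions and 25885 peaks remained, all members among them), a coefficient per stage over 9 libraries, the two-sided quasi-likelihood F test and Benjamini-Hochberg adjustment. SE is the log2 change over the root of F. Single values per library were compared by an exact permutation test. The fits were run on simulated data as a check of the code. How often changes of the size seen in the members would be called is not given here. Gene positions and promoters came from RefSeq (GRCm38.p6), in which all 6 members were found.

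The members, gene lists, comparisons and most alternatives were chosen with earlier results of these data known. Named were all members, all locus peaks, called genes of the pathway and neighbour lists, and a fixed panel. Cell markers are given as sums and counts. Alternatives were other scalings and filters, DESeq2 1.42.0, limma-voom (limma 3.58.1), loess offsets, the replicate number as a block, and libraries left out. No replicate pair agreed within sampling noise (chi-square per degree of freedom 1.06 to 3.03). An item planned for naming is not reported here.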

Additional observations from a re-analysis of the deposited data

How the results depend on the processing

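No TSS member and no locus peak was called in P1 with P14 or P14 with P56 under any of 19 alternatives. For P1 with P56, 1 TSS member (Nppb) was called with limma-voom, with 0 to 1 when single libraries were left out. 1 locus peak (peak 2) was called with the factors of the other table, again with 0 to 1 when single libraries were left out. Replicate numbers are shared between stages, but the labels tie them to no shared animals or days, and not every pair deviated together: deviations of same-numbered libraries correlated at -0.07 to 0.22 over 9 pairs (others -0.27 to 0.25), and in 12 of 18 choices a library was closest to its own number among the 3 libraries of another stage, a hint from the data and not from the design. With the replicate number as a block 1 TSS member (Nppb, 0.80, adjusted p = 0.0149) and 1 locus peak (peak 2, 0.91, 0.0123) were called. That fit called 1982 of 33747 TSS regions and 684 of 25885 peaks from P1 to P56. Over all alternatives Nppb kept its direction from P1 to P56 (0.39 to 1.00, adjusted p 0.0149 to 0.356), as did Nppa (0.066 to 0.40, adjusted p 0.39 to 0.943), peak 2 (0.64 to 1.10) and peak 4 (-1.11 to -0.52). With library size alone the median of all TSS regions was -0.14 and Npr1 stood at 0.14 and Nppb at 0.66 from P1 to P56.

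Of 36 member comparisons 8 changed sign somewhere. Peak 1 from P1 to P56 turned to 0.092 with limma-voom, 0.23 with loess offsets and 0.50 when P1 replicate 1 and P56 replicate 2 were both left out, and ranged from -0.38 to 0.59 with single libraries left out. Peak 6 turned to -0.090 without both these libraries and was 0.13 to 0.58 with single libraries left out. With single libraries left out the ranges were -0.070 to 0.72 for Npr3 and -0.21 to 0.035 for Nppa from P1 to P14, and -0.44 to 0.34 for Npr3, -0.20 to 0.17 for Npr2, -0.10 to 0.33 for Nppc and -0.15 to 0.64 for peak 4 from P14 to P56. The log2 ratio of Nppb to Nppa differed between P56 and P1 by 0.40 to 0.66, and that of Npr3 to Npr1 by -0.24 to 0.11. The cause was not tested. For all regions from P1 to P56, 853 TSS regions were called (581 higher, 272 lower), against 147 without P56 replicate 2, 1982 with the block and 1097 with library size alone (319 higher, 778 lower); with the factors of the other table the split was 332 higher and 339 lower. Of all peaks 115 were called, against 0 without P56 replicate 2 and 691 without both libraries. From P1 to P14 the counts were 4 TSS regions (0 to 293 over the alternatives) and 2 peaks (0 to 1039, the highest of each without both libraries). From P14 to P56 they were 1 TSS region (0 to 101) and 2 peaks (0 to 292, the highest of each without P56 replicate 1). Without P56 replicate 1, 1 gene each of the peptide processing list, the locus neighbours and the leukocyte markers was called higher from P1 to P56, as was 1 endothelial marker without both P1 replicate 1 and P56 replicate 2. Of all TSS regions, 1164 of 33842 were called higher without P56 replicate 1 and 472 of 32118 without both libraries. With the block 1 locus neighbour, 1 endothelial and 1 fibroblast marker were called higher from P1 to P56, and 1 gene of the transcription factor list from P14 to P56. Of 33747 TSS regions the block called 1387 higher from P1 to P56 and 68 higher from P14 to P56. From P1 to P56 smooth muscle markers had 0 to 2 called over the alternatives. Depth limits P14 most, where members had as few as 5 counts in a library.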
